A study of Oryza sativa with 20 samples.

Results

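The step from stage S3 to stage S4 was followed in rice (Oryza sativa) leaf blades, taken from the first complete leaf of each seedling, by small RNA sequencing. The groups compared were blade S3 and blade S4, chosen by their sample titles, with 2 libraries each, so that 4 of the 20 libraries of the series carried the comparison. The other libraries, which were the blade at S1, S2 and S5 and the lamina joint at all 5 stages, helped to estimate the spread and served as reference steps. The labels name no cultivar, genotype or treatment, so the groups are told apart here by stage and tissue alone. Seedlings stood in water under a light and dark cycle, and tissue was taken at 5 ages, from day 4 to day 9 after germination. Which day gave which stage is not stated, nor is it said whether the libraries of a group came from separate plants.

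MicroRNAs are short RNAs cut from hairpin precursors. In plants they are loaded into ARGONAUTE proteins and pair closely with target transcripts, which are then cleaved or translated less. Many conserved plant miRNA families target transcription factors that act in leaf growth, polarity and phase change, so shifts in their levels are commonly followed through leaf development. The blade is the flat, light-capturing part of a grass leaf, and the lamina joint is the hinge that connects it to the sheath.

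The deposited tables listed 685 numbered tags and did not pair the numbers with miRNA names or sequences. No tag could therefore be assigned to a family or a target, no tissue marker could be checked, and tags are described by number, level and course. The blade S3 libraries held 483143 and 632538 counts and the blade S4 libraries 893603 and 522139. Of the 685 tags, 422 had a count in these 4 libraries and 299 passed the filter on low counts over the series, which kept between 99.96% and 99.97% of the counts of these libraries. Levels are given below as counts per 1000000 counts (CPM) on library sizes scaled with TMM factors. The other 124 tags with a count in the 4 libraries were too rare to be tested. Across tags, the Spearman correlation was 0.935 between the S3 replicates, 0.943 between the S4 replicates and 0.843 to 0.852 between a library of S3 and one of S4. No pair agreed within sampling noise (chi-square per degree of freedom 102 between the S3 replicates and 45.4 between the S4 replicates), so all 4 libraries were counted separately. Against the 2 S4 libraries, that measure was 106 and 104 for the first S3 library and 227 and 219 for the second. By this measure the first S3 library was thus about as far from the other S3 library as from those of S4.

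From S3 to S4, 33 of the 299 tested tags (11% of them) changed in the blade, and falls were more frequent than rises. At S4, 24 tags were lower (8.03% of those tested) and 9 were higher (3.01%), by edgeR's quasi-likelihood test with a Benjamini-Hochberg adjusted p below 0.05. The tags that fell had a median fitted change of -3.16 (log2) and those that rose one of 2.08, against 0 over all tested tags. One tag that fell had 21 counts at S3 and none at S4, at least 7.38-fold lower against a floor of 3 counts over the S4 group, and with it set to that bound the median of the falls was -3.07. Of the 24 falls, 20 exceeded 4-fold and 14 exceeded 8-fold, and of the 9 rises, 7 exceeded 4-fold and 1 exceeded 8-fold. For all 33 tags the S3 and S4 libraries did not overlap, while over all tested tags 27.1% lay apart in the upward and 27.4% in the downward direction, so that lack of overlap alone was common. The balance of directions depended on the scaling, with 17 higher and 23 lower under DESeq2 size factors and 17 and 22 under upper quartile factors, which moved the fitted changes up by a median of 0.14 (log2) each, whereas scaling to total counts moved them by -0.26 and TMM factors computed after dropping the most abundant tag by -0.17. The count also depended on single libraries: it was 17 without the second S3 library, 19 without the first S4 library and 8 without the second S4 library.

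**Figure D1:**
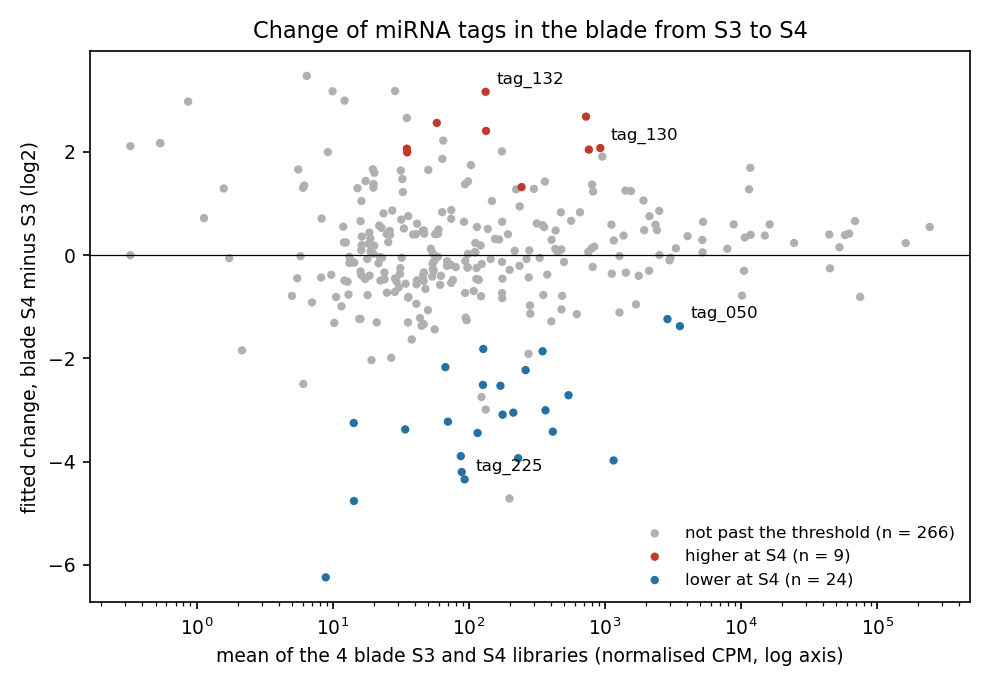
Fitted log2 change from blade S3 to blade S4 (vertical axis) against the mean level of the 4 libraries in CPM (horizontal, log axis), 1 point for each of the 299 tested tags, with the 1 tag without a count in them drawn at the left edge. The 24 tags that fell (blue) reach further from 0 than the 9 that rose (red), and the most abundant tags on the right lie close to 0.

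The tags that fell had group means between 17.8 and 5123 CPM at S3, with a median of 254. At S4 their median was 37.2 CPM. Together they took 1.80% and 1.88% of the tested counts in the S3 libraries and 0.433% and 0.388% in the S4 libraries. The largest fall among tags with a count in each of the 4 libraries was that of tag_225. Its normalised level was 198 and 158 CPM in the S3 libraries and 11.7 and 4.33 CPM in the S4 libraries, from 103, 102, 9 and 2 counts. Both S4 libraries were thus far below both S3 libraries, and the fitted change was -4.34 ± 0.59 (log2, SE; edgeR adjusted p = 0.000445). The ratio of summed counts, S4 to S3, was 0.0509, with an exact 95% binomial interval of 0.025 to 0.093 that covers counting error alone, as reads copied by PCR do not stand for separate molecules.

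Tag_050 was the most abundant tag that fell and stood 25th of the 299 in mean level over the 4 libraries. It had 3741 and 6506 CPM in the S3 libraries and 2375 and 1575 CPM in the S4 libraries. The groups did not overlap, but the S3 replicates were far apart, and the gap between the lower S3 and the higher S4 library was smaller than the gap between the S3 libraries. The fitted change was -1.37 ± 0.35 (log2, SE; edgeR adjusted p = 0.0168). It was -0.85 without the second S3 library and -0.90 without the second S4 library, where the adjusted p was 0.314 and 0.200. The call was also lost without the second lamina joint S4 library, the first blade S2 library, under upper quartile factors and with the 4 libraries alone (edgeR adjusted p 0.0505 to 0.0530).

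By median level, the tags that rose were scarcer than those that fell at S3 and more abundant at S4, which the choice of tags by this step favours. Their S3 means lay between 13.5 and 354 CPM with a median of 42.3, and the S4 median was 239 CPM, against 254 and 37.2 CPM for the falling tags. The rising tags together took 0.117% and 0.113% of the tested counts in the S3 libraries. In the S4 libraries they took 0.384% and 0.489%, against 0.433% and 0.388% for the falling tags. Tag_132 showed the largest rise. It had 23.1 and 29.5 CPM at S3 and 134 and 344 CPM at S4, so that the replicates were close at S3 and spread at S4 without reaching the S3 level. The fitted change was 3.17 ± 0.79 (log2, SE; edgeR adjusted p = 0.0164), which is 8.97-fold.

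Tag_130 was the most abundant tag that rose. Its level was 380 and 328 CPM in the S3 libraries and 1219 and 1768 CPM in the S4 libraries, and the lowest S4 library was well above the highest S3 library. The fitted change was 2.08 ± 0.55 (log2, SE; edgeR adjusted p = 0.0200), or 4.22-fold. Both tag_132 and tag_130 lost the call without either S3 library or without the second S4 library (edgeR adjusted p 0.0648 to 0.143), with fitted changes between 2.54 and 3.39 for tag_132 and between 1.96 and 2.21 for tag_130.

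**Figure D2:**
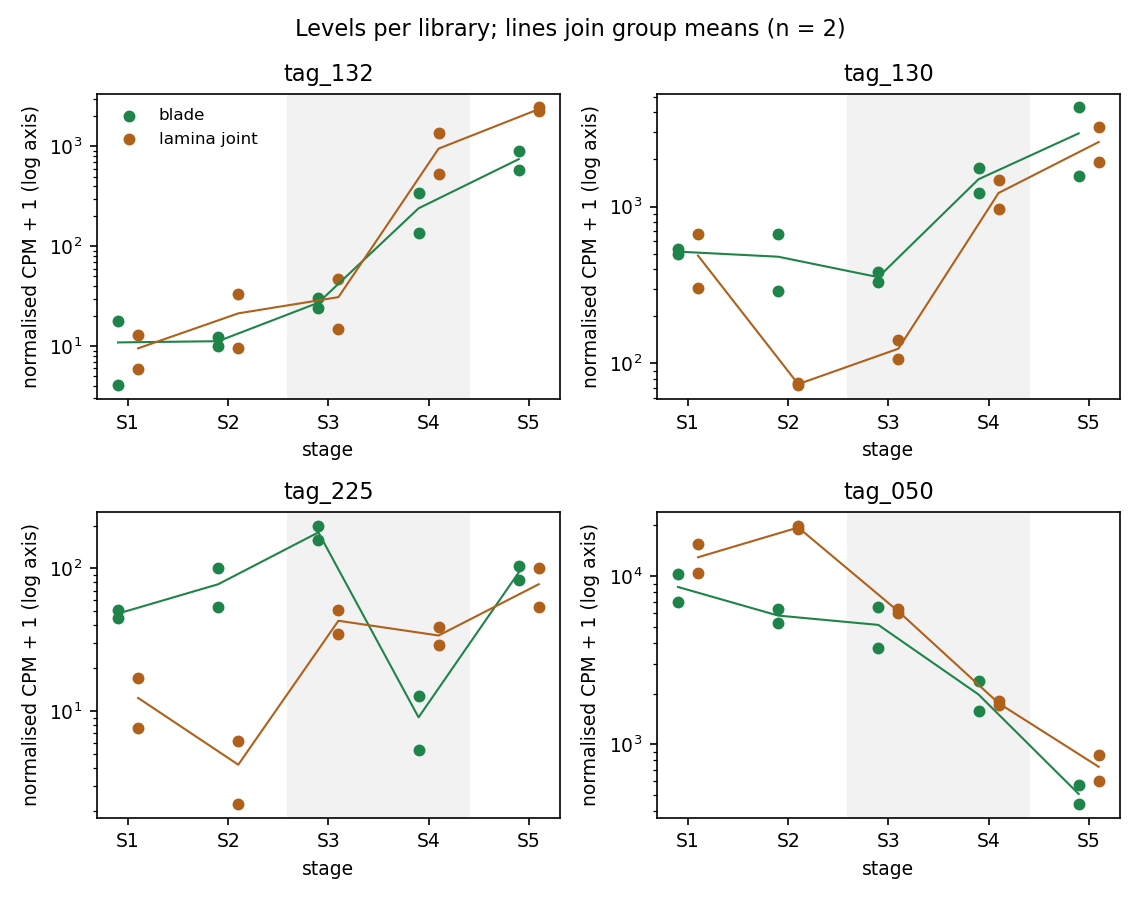
CPM plus 1 (log axis) of tag_132, tag_130, tag_225 and tag_050 in every library of the blade (green) and the lamina joint (brown) by stage, with lines through the group means (n = 2) and the S3 to S4 step shaded. Within the blade, tag_225 is lowest in the 2 S4 libraries, at 11.7 and 4.33 CPM, and its S5 mean is 92.8 CPM.

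Most called tags were of intermediate abundance. Of the 100 tags with a mean of 100 to 1000 CPM over the 20 libraries, 16 fell and 5 rose, so that 21.0% were called. Of the 139 tags between 10 and 100 CPM, 5 fell and 3 rose, a share of 5.76%. Of the 48 tags over 1000 CPM, 3 fell and 1 rose, a share of 8.33%, and 0 of the 12 tags under 10 CPM were called by edgeR (2 at an unadjusted p below 0.05; DESeq2 0 and limma-voom 1). The precision differed between these classes, with a median standard error of 0.61 (log2) between 10 and 100 CPM, 0.46 between 100 and 1000 CPM and 0.39 above, so a change of equal size carried the larger error among the scarce tags. The median size of the fitted change, without regard to sign, was 0.55, 0.72 and 0.45 (log2) in these 3 classes.

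The 10 most abundant tags, which held 76.9% and 81.5% of the counts in the S3 libraries and 79.6% and 79.2% in the S4 libraries, gave 0 calls in edgeR (smallest adjusted p 0.0766; 1 tag at an unadjusted p below 0.05; 0 calls by DESeq2 and by limma-voom). Their fitted changes were above 0 for 8 and below 0 for 2, a split that became 5 and 5 with total counts. The most abundant tag took 22.3% (exact 95% binomial interval 22.2 to 22.4) and 19.1% (19.0 to 19.2) of the S3 libraries, and 24.0% (24.0 to 24.1) and 26.2% (26.1 to 26.3) of the S4 libraries. Its share was 20.7% ± 2.25 (SD, n = 2) at S3 and 25.1% ± 1.54 (SD, n = 2) at S4. An exact permutation test of 2 libraries against 2 cannot go below p = 0.333, so that test could make no call for the share, and the fitted change of 0.55 ± 0.35 (log2, SE) did not pass (edgeR adjusted p = 0.388). The fifth tag by abundance came nearest to a call, with 74001 and 116473 CPM at S3 and 58564 and 50208 CPM at S4. Both S4 libraries lay below both S3 libraries, but the distance from the lower S3 library to the S4 libraries was smaller than that between the S3 libraries, and its fitted change was -0.81 ± 0.28 (log2, SE). Total counts as the scaling gave 1 lower call among the 10, and so did TMM with the most abundant tag left out. The diversity of the libraries, as the exponential of the Shannon entropy over tags, was 20.1 ± 1.53 (SD, n = 2) at S3 and 18.3 ± 0.476 (SD, n = 2) at S4.

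Seen over all 5 stages, the step from S3 to S4 was the largest between neighbouring blade stages for 23 of the 24 tags that fell and for 7 of the 9 that rose, which the choice of these tags by that step favours. Relative to S3, the median level of the falling tags was 0.78 higher at S1 and 0.21 higher at S2, and -2.69 at S4 and -3.33 at S5 (log2 CPM). At S5, 24 of 24 falling tags had a lower mean than at S3, where 159 of all 299 tested tags were lower and 138 higher. The S3 libraries that served to choose the tags are also the baseline here. That favours these counts and medians in both directions. The lowest blade stage was S5 for 17 of the falling tags and S4 for 7. From S4 to S5 the edgeR test called 2 of the 24 lower again and 1, tag_225, higher. For the rising tags the medians were -0.47 at S1, -0.48 at S2, 2.04 at S4 and 2.86 at S5, and 9 of 9 were above S3 at S5. Of these 9, 6 had their highest mean at S5 and 3 at S4, and the edgeR test from S4 to S5 called 2 of them higher and 1 lower. The group means of 10 of the 24 falling tags declined at every blade step over the series, and those of 5 of the 9 rising tags increased at every one. The choice of tags set the direction of the S3 to S4 step in advance. The share with such a course among all tested tags was not counted, so these counts have no background. The earlier blade steps gave 0 calls in edgeR, both from S1 to S2 (24 tags at an unadjusted p below 0.05; 0 by DESeq2 and 0 by limma-voom) and from S2 to S3 (28 tags; 4 by DESeq2 and 0 by limma-voom). The step from S4 to S5 gave 25 calls (8.36%), a count that was 6 without the first blade S5 library, 9 without the first and 14 without the second blade S4 library, and 16 without the first lamina joint S3 library. Neighbouring steps share libraries, and whether the steps differed in size was not tested.

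**Figure D3:**
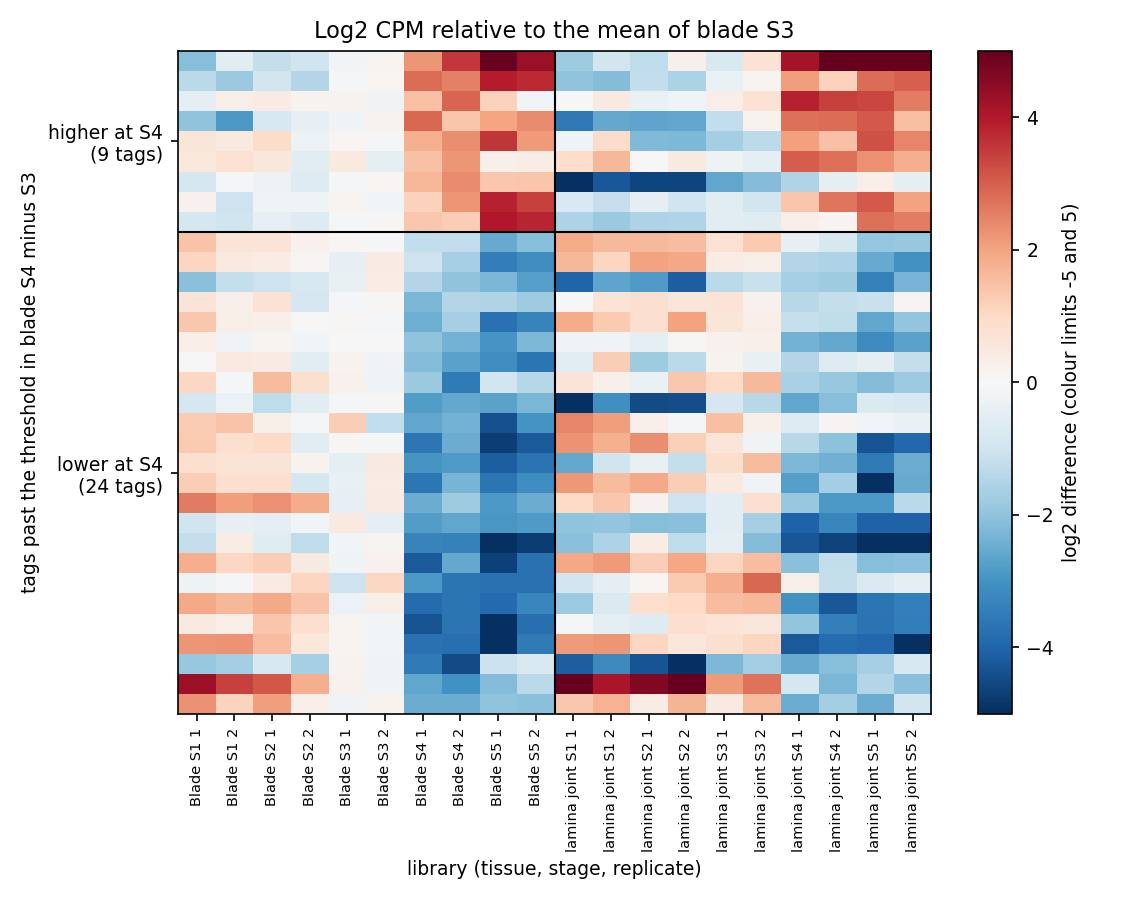
Log2 CPM of the 33 called tags (rows, ordered by fitted change within each direction) in the 10 blade and 10 lamina joint libraries (columns), as the difference from the mean of blade S3, with colours limited at -5 and 5. The change of colour lies between S3 and S4 in both tissues for most rows.

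Blade S2 and S5 share no library with blade S3 and S4, but both comparisons come from 1 fit. They share the scaling and the estimate of spread for each tag, so the shares over all tested tags are no independent background. S2 to S5 also spans the step from S3 to S4, which favours agreement. Of the 24 tags that fell from S3 to S4, 23 were also lower at S5 than at S2 (95.8% of the 24, and 34.8% of the 66 tags called lower in that comparison), where 22.1% of all tested tags were called lower. Of the 9 tags that rose, 7 were also higher at S5 than at S2 (77.8% of the 9 and 12.7% of the 55 called higher), where 18.4% of all tested tags were called higher. The median change from S2 to S5 was -4.15 for the tags that fell and 2.94 for those that rose, against -0.06 over all tested tags (log2). No tag was called in opposite directions in the 2 comparisons. Over S2 to S5, tag_050 changed by -3.53 ± 0.38, tag_130 by 2.61 ± 0.56 and tag_132 by 6.18 ± 0.94 (log2, SE; edgeR adjusted p 1.41e-05, 0.00198 and 0.000148). The falling tag that was not lower at S5 than at S2 was tag_225, with a change of 0.26 ± 0.49 (log2, SE; edgeR adjusted p = 0.718). Total counts turned the S5 against S2 comparison to 33 higher and 104 lower, and its count of 121 became 79 without the second S2 library and 78 without the first S5 library.

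The same step was compared in the lamina joint, whose libraries are separate from those of the blade. There 53 tags changed from S3 to S4 (17.7%), 27 higher (9.03%) and 26 lower (8.7%). The count was 32 without the second lamina joint S3 library, 31 without the first and 27 without the second lamina joint S4 library. Of the 24 tags that fell in the blade, 19 also fell in the lamina joint, which is 79.2% of the blade list and 73.1% of the lamina joint list. Of the 9 that rose in the blade, 8 also rose in the lamina joint, which is 88.9% of the blade list and 29.6% of the lamina joint list. All 33 blade tags had the same sign of fitted change in the lamina joint, and 0 were called in the opposite direction. Over all tested tags, the lamina joint change was above 0 for 51.8% and below 0 for 47.2%. The median lamina joint change was -2.74 for the tags that fell in the blade and 3.27 for those that rose there, against 0.03 over all tested tags (log2). Over the 299 tags, blade and lamina joint changes correlated with a Pearson's r of 0.693 and a Spearman's rho of 0.628, as a description, since tags are not independent and all values come from 1 fit with shared scaling.

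Tag_132 rose in the lamina joint from 13.9 and 46.1 CPM to 533 and 1369 CPM, a change of 4.94 ± 0.83 (log2, SE; edgeR adjusted p = 0.00128). The change of tag_130 there was from 106 and 141 CPM to 1471 and 970 CPM, or 3.30 ± 0.58 (log2, SE; edgeR adjusted p = 0.00144). The fitted rise of both tags was larger in the lamina joint, but the differences, -1.78 ± 1.05 and -1.23 ± 0.75 (blade minus lamina joint, log2, SE), did not pass (edgeR adjusted p = 0.753 for each). Tag_050 fell in the lamina joint from 6332 and 6003 CPM to 1807 and 1700 CPM, a change of -1.81 ± 0.35 (log2, SE; edgeR adjusted p = 0.0028). For tag_050 the blade step differed from that by 0.44 ± 0.48 (log2, SE; edgeR adjusted p = 0.825).

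Of the 9 tags that rose in the blade from S3 to S4, 9 were also higher in lamina joint S5 than in lamina joint S2, where 28.1% of all tested tags were called higher (100% of the 9 and 10.7% of the 84 called). Of the 24 tags that fell, 16 were lower in that comparison (66.7% of the 24 and 33.3% of the 48 called), where 16.1% of all tested tags were called lower, and 2 were higher, among them tag_225 by 4.63 ± 0.68 (log2, SE; edgeR adjusted p = 9.65e-05). The directions in that comparison depended on the scaling, with 65 higher and 85 lower under upper quartile factors and 44 and 122 under total counts, against 84 and 48.

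A further 26 tags were called in the lamina joint and not in the blade. Of these, 19 rose in the lamina joint with a median of 2.44 (log2), and their median blade change was 0.94, with the same sign for 16. The other 7 fell with a median of -1.90 in the lamina joint and -1.28 in the blade, with the same sign for 6. Of all 299 tested tags, 151 had a higher mean log2 CPM at blade S4 than at blade S3 and 148 a lower one. The test of the difference between the tissues called 0 of these 26 tags in edgeR (smallest adjusted p 0.0925; 9 at an unadjusted p below 0.05; DESeq2 2 and limma-voom 0). Over all 299 tested tags, 18 had an unadjusted p below 0.05 in that edgeR test. The 26 were chosen by their lamina joint step, which enters the difference and favours small p-values among them. The longer list of rises in the lamina joint was thus not shown by that test to be particular to the tissue. In bulk tissue, fewer cells of a type and less RNA per cell cannot be told apart, for any of these tags.

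**Figure D4:**
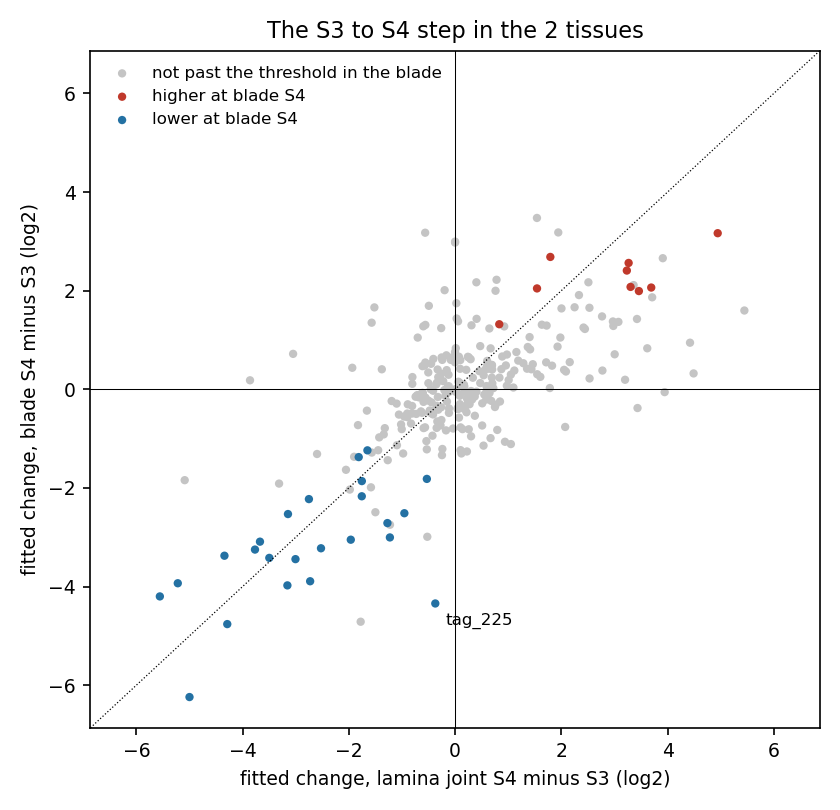
Fitted log2 change from S3 to S4 in the blade (vertical axis) against that in the lamina joint (horizontal axis) for the 299 tested tags, with the dotted line marking equal change. The tags called in the blade lie in the quadrants of equal sign, and tag_225 lies near 0 on the lamina joint axis.

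The change from S3 to S4 differed between blade and lamina joint for 1 tag (0.334% of those tested), with 18 tags at an unadjusted p below 0.05. This tag was tag_225. In the lamina joint it had 33.8 and 50.1 CPM at S3 and 28.0 and 37.7 CPM at S4, so that the groups overlapped, and the change was -0.37 ± 0.52 (log2, SE; edgeR adjusted p = 0.710). The difference of the blade change from it was -3.97 ± 0.78 (log2, SE; edgeR adjusted p = 0.0465). The call lay close to the threshold and was lost in 19 of the 31 settings tried. Among these were DESeq2 size factors (adjusted p = 0.0772) and 17 of 20 fits without a single library, the exceptions being the second lamina joint S1 library and either lamina joint S2 library. The fitted difference stayed between -4.94 and -3.44 over the 31 settings. The blade means of tag_225 were 47.3 ± 4.34 CPM at S1, 76.5 ± 33.4 CPM at S2, 178 ± 27.9 CPM at S3, 8.04 ± 5.25 CPM at S4 and 92.8 ± 15.5 CPM at S5 (SD, n = 2 each). Of the steps between neighbouring blade stages, those from S3 to S4 and from S4 to S5 passed the test for tag_225, and the change from S4 to S5 was 3.41 ± 0.58 (log2, SE; edgeR adjusted p = 0.00218), in a comparison that shares the S4 libraries with the fall.

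In the other direction, 0 tags had a higher blade than lamina joint change by that test, with 7 at an unadjusted p below 0.05 (DESeq2 0 and limma-voom 0; 2 without the first blade S3 library). Tag_190 had the smallest p among them. Its blade level was 21.1 and 15.5 CPM at S3 and 5.22 and 38.9 CPM at S4, with the S4 libraries on either side of the S3 libraries. In the lamina joint tag_190 fell from 51.8 and 144 CPM to 7.47 and 5.39 CPM (-3.86 ± 0.91, log2, SE; edgeR adjusted p = 0.00829). The difference between the tissues was 4.04 ± 1.24 (log2, SE) and did not pass (edgeR adjusted p = 0.319; 0.00766 without the filter on low counts).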

How the data were processed

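Per the labels, total RNA was extracted with TRIzol and small RNA libraries were made by a sequencing company. The authors deposited whole-number counts per numbered tag in 1 table per library, without normalisation. The submitters' processing notes list CASAVA and, as genome build, IRGSP-1.0. How reads were aligned, annotated and shared between similar miRNAs is not given in the sources used here, so near-identical miRNAs may share or divide reads. No tested tag repeated the counts of another in all 20 libraries.

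Groups and replicate numbers came from the titles, 2 libraries in each of 10 groups. Nothing says that the replicates are separate plants, so p-values measure the spread between libraries, which may be technical. The members and lists were chosen with earlier results of these data known. Counts were tested two-sided with the quasi-likelihood functions glmQLFit and glmQLFTest (edgeR 4.0.16, R 4.3.3), with TMM factors, filterByExpr (minimum count 10, minimum total 15), a mean for each group over all 20 libraries (10 residual degrees of freedom), contrasts, and Benjamini-Hochberg adjustment over the 299 tested tags at 0.05. Standard errors came from the F statistic. Log2 CPM used a prior count of 2. Where a group had 0 counts, the bound used 3 counts over the group. Library totals over the series lay between 194799 and 1169330.

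By rule, the named tags were, for each direction of the blade step, the largest fold change among tags with a mean of at least 10 CPM and a count in each of the 4 libraries, and the most abundant one, and for the difference between tissues those with the smallest p. Alternatives were other scalings and filters, limma-voom (limma 3.58.1), DESeq2 1.42.0, a robust edgeR fit, a replicate block, fewer groups in the fit, and leaving out each library. Plots used Python 3.11.15 and matplotlib 3.10.9.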

Additional observations from a re-analysis of the deposited data

Results flagged for a closer look

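Tag_225 drew attention because its change from S3 to S4 differed between the blade and the lamina joint in a test of that difference, with a fitted value of -3.97 (blade minus lamina joint, log2; edgeR adjusted p = 0.0465). The fall in the blade itself kept its call in all 32 settings tried, with adjusted p up to 0.0203, while the difference between the tissues lost its call in 19 of 31.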

How the results depend on the processing

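The blade count of 33 became 50 with DESeq2 and lay between 32 and 50 over the 12 settings other than leaving out a library, and between 8 and 40 over the 20 fits without 1 library. Of the 33 tags, 27 kept the call in those 12 settings, 30 under all 4 other scalings and 5 in all 32 settings (4 lower, among them tag_225, and 1 higher), and 0 changed sign in any. The labels do not say what a shared replicate number stands for, so the main fit had no block. Deviations of same-numbered replicates correlated at 0.07 between blade S3 and S4 and at 0.16 between blade S2 and S5. Over the 45 pairs of groups the correlations ran from -0.26 to 0.56, with 13 above 0.1. Such values do not settle whether the numbers pair libraries in some of the groups. With the replicate block the blade count was 37, the lamina joint S3 to S4 count 51, the S5 against S2 counts 121 in the blade and 134 in the lamina joint, and the count for the difference between tissues 0 (tag_225 adjusted p = 0.0837). Between lamina joint S3 and S4, the deviations of same-numbered replicates correlated at -0.22. A block with crossed numbers in lamina joint S4, added after the data were seen, gave 51 calls for the lamina joint S3 to S4 step.

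The count of 1 for the difference between tissues was 0 with DESeq2 size factors, 2 with TMM without the most abundant tag, 10 without the filter, 3 with DESeq2 and 4 with the 8 libraries alone, and 0 to 2 without 1 library. Without 1 library the lamina joint step gave 27 to 59 calls, blade S5 against S2 78 to 131 and lamina joint S5 against S2 96 to 146. The settings for the other blade steps were added after the data were seen. S1 to S2 gave 7 calls without the filter. S2 to S3 gave 10 without the filter, 1 with robust estimation, 4 with DESeq2 and 0 to 2 without 1 library. S4 to S5 gave 41 without the filter, 39 with its own libraries alone and 6 to 29 without 1 library. The cause of these differences was not tested. Expressing the share of the most abundant tag over tested tags gave 20.7% and 25.1%, as before. Depth limits the scarce tags most, since 1 count was worth 1.31 to 2.16 CPM in the 4 libraries.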

Other observations

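Of the tags that fell in the blade, 5 carried consecutive numbers, tag_225 among them, which was noticed after the values were seen. What the order of the numbers stands for is not given. One of them was the tag with 21 counts at S3 and none at S4, at least 7.38-fold lower against 3 counts over the S4 group, and the blade changes of the other 4 ran from -4.34 to -2.71 (log2). Their S3 means ran from 17.8 to 936 CPM. In the lamina joint all 5 had a negative fitted change from S3 to S4. Of the 5, 3 were called lower there, as were 19 of the 24 tags that fell in the blade and 8.7% of all tested tags. Over the 20 libraries the Spearman correlations of the 10 pairs ran from -0.365 to 0.841, with shared libraries and scaling.

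The largest fitted change among tags of at least 10 CPM that did not pass was -4.71 ± 1.64 (log2, SE; edgeR adjusted p = 0.0726). It rested on 1 library, with 726 and 41.9 CPM at S3 and 26.1 and 0 CPM at S4, and the first S3 library held 378 counts against 27 in the second. Among all 685 tags, 7 had counts in both S3 libraries and none in the S4 libraries, with at most 21 counts, and 5 had counts in both S4 libraries and none in the S3 libraries, with at most 6 counts.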
